A study of Saccharomyces cerevisiae with 6 samples.

Results

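The response shared by both deletions was taken as the 4 arrays of Saccharomyces cerevisiae strains lacking GPA2 or GPR1, pooled and set against the 2 arrays of their wild type, out of 6 arrays in all. Per the labels, the gpa2 deletion (2 arrays), the gpr1 deletion (2 arrays) and the wild type (2 arrays) were all W303-1a, a laboratory strain of budding yeast, and total RNA was hybridised in a single colour. Growth medium, harvest density, deletion markers and the number of clones are not stated in the labels, and the study's title concerns glucose and cell size. The second gpa2 array is labelled as a second experiment. Nothing in the labels says that the arrays of a genotype came from separate cultures, so that p-values measure the spread between these arrays, which may be technical.

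Of 9335 probe sets, 60 were Affymetrix controls and 9275 were analysed. A probe set is the group of short probes on the array that reads 1 transcript. In 1706 probe sets all 4 deletion arrays lay on the same side of both wild-type arrays after quantile normalisation, which gives every array the same distribution of intensities: 806 (8.69%) above and 900 (9.7%) below. These sets are descriptions of order and include 88 above and 135 below among the 2319 dim probe sets that were not tested.

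Gpr1 is a receptor of the yeast plasma membrane that responds to glucose and sucrose, and Gpa2 is the G protein alpha subunit that works with it. Together with Ras they stimulate adenylate cyclase, and the cAMP that it makes activates protein kinase A. In glucose-grown yeast this kinase favours growth and ribosome production, and it restrains the transcription factors Msn2 and Msn4, which switch on stress and storage carbohydrate genes. Strains lacking either protein are known for smaller cells on glucose.

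The labels of the deletions held. The deposited intensity of GPA2 was 9.3 and 10.9 in the gpa2 deletion, 1619.3 and 1029.2 in the gpr1 deletion, and 2410.3 and 1900.3 in wild type. That of GPR1 was 490.7 and 634.9 in the gpa2 deletion, 5.1 and 2.8 in the gpr1 deletion, and 1086.4 and 1013.9 in wild type. Each gene was low in its own deletion, and neither passed the pooled test (adjusted p = 0.451 for GPA2 and 0.520 for GPR1 by limma). GPA2 was also below wild type on both gpr1 arrays and so counts among the 900 by order, while GPR1 does not. As the deleted genes, both are set apart from the shared response. The summaries over all genes and over the cAMP signalling list still include them.

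Arrays differed in intensity and in signs of RNA integrity. Median deposited intensity ran between 225.1 and 525.9 on the deletion arrays, against 563.5 and 373.5 on the wild-type arrays. The 3' to 5' signal ratio of the control gene SPT15, a sign of RNA integrity, was 3.50 to 4.83 on the deletion arrays, against 3.16 and 10.3 on the wild-type arrays. For the control gene ACT1 the ratio was 1.35 to 1.54 on the deletion arrays, against 1.26 and 1.29 on the wild-type arrays. In ACT1 all 4 deletion arrays thus lay above both wild-type arrays, a difference that cannot be told apart from genotype. Arrays of the same genotype correlated at Pearson r = 0.939 (wild type) to 0.969 over probe sets, and arrays of different genotypes at 0.923 to 0.978. The second wild-type array thus stood apart in SPT15, and the order of all arrays by similarity did not follow genotype alone. Mating-type genes were those of MATa cells: the 7 MATa markers averaged 10.36 to 10.59 (log2) on the deletion arrays, against 10.04 and 9.99 on the wild-type arrays, and the 4 MATalpha markers averaged 6.69 to 7.23 on the deletion arrays, against 6.59 and 7.35 on the wild-type arrays.

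In the pooled test, 36 probe sets were higher in the deletions (0.518% of 6956 tested) and 27 were lower (0.388%). The test was limma's moderated test with Benjamini-Hochberg adjustment over all probe sets tested, at an adjusted p under 0.05. In it, a gap between the 2 deletions counts as noise, which makes a call harder. A call does not require each deletion to pass on its own. All 63 called probe sets (0.906%) had the 4 deletion arrays beyond both wild-type arrays, with a gap of at least 0.64 on the log2 scale. The rises were 0.93 to 10.68 on that scale, with a median of 1.38, and the falls were -1.07 to -4.46, with a median of -1.62, while the median change of all probe sets tested was -0.01. A further 1420 tested probe sets had groups that did not overlap and were not called, 705 of them with an unadjusted p of 0.05 or more. At the threshold, ATG39 lay just inside (adjusted p = 0.0486) and YHR214C-B, ZRT1 and GAD1 just outside (0.0501 each).

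**Figure D1:**
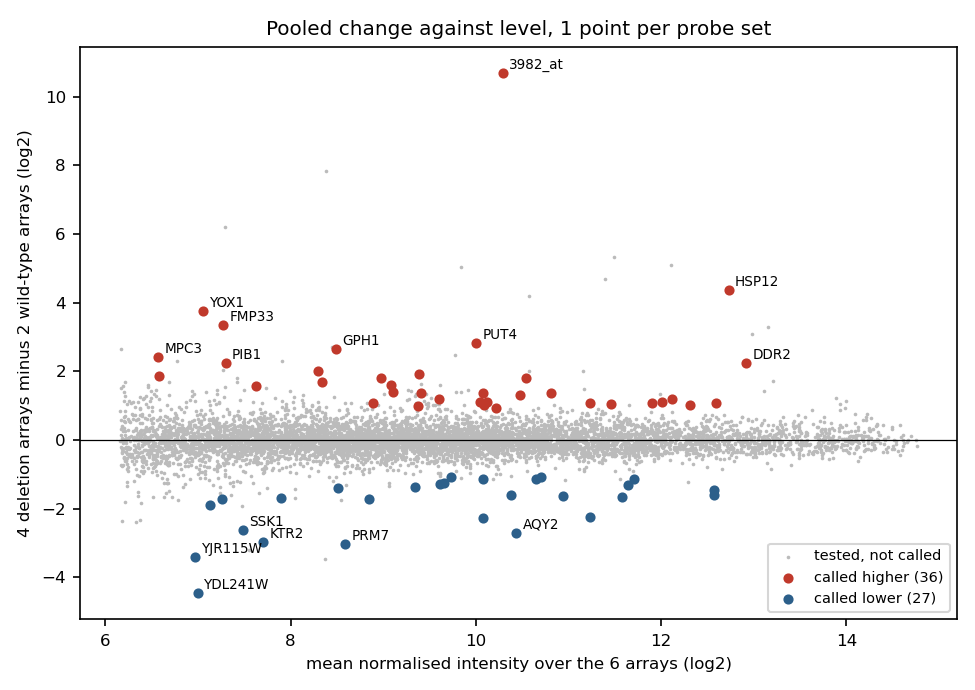
Each point is 1 tested probe set, with its mean normalised intensity over the 6 arrays (log2) on the horizontal axis and the mean of the 4 deletion arrays minus that of the 2 wild-type arrays (log2) on the vertical axis. Red points are the 36 probe sets called higher in the deletions and blue points the 27 called lower, grey points were not called, and grey points farther out than called ones, such as GPR1, GPA2, TDH3 and OLI1, are probe sets whose arrays within a group differed widely.

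These counts depended on single arrays and on scaling. Leaving out a gpa2 array gave 7 higher and 12 lower (without the first) or 11 and 18 (without the second). Without the second gpr1 array there were 6 and 10, without the first wild-type array 109 and 37, and without the second wild-type array 27 and 18, of which 10 and 15 were among the 63. On the intensities as deposited, where the median tested probe set was 0.67 lower in the deletions, calls split into 6 higher and 25 lower (19.4% higher, against 57.1% after quantile normalisation). Of the 63 calls, 14 held without any single array: the unnamed probe set 3982_at, HSP12, YOX1, FMP33, DDR2 and ECM13 among the rises, and PHO5, CMK2, YOR385W, YLL053C, AQY2, KTR2 and both probe sets of PRM7 among the falls. Every other call was lost without at least 1 array.

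The rises were led among named genes by HSP12, a gene for a small stress protein that binds membranes. The normalised log2 level of HSP12 was 14.25 and 14.43 in the gpa2 deletion, 13.96 and 14.11 in the gpr1 deletion, and 9.63 and 9.99 in wild type. The deletions were 20.8-fold higher, with a log2 change of 4.38 ± 0.18 (SE, limma adjusted p = 3.24e-06), and the lowest deletion array stood far above the higher wild-type array. DDR2, another small stress-induced protein gene, behaved alike at a high level. DDR2 had log2 levels of 13.91 and 14.02 in gpa2, 13.09 and 13.62 in gpr1, and 11.53 and 11.32 in wild type. Its change was 2.24 ± 0.25 (SE, limma adjusted p = 0.00506), and the lowest deletion array was well above the higher wild-type array.

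YOX1 encodes a homeodomain repressor of genes expressed around the M to G1 transition. YOX1 measured, in log2 units, 8.83 and 7.41 in the gpa2 deletion, 8.72 and 8.26 in the gpr1 deletion, and 4.42 and 4.70 in wild type. It was near the floor of the measurement in wild type, and its change of 3.75 ± 0.42 (SE, limma adjusted p = 0.00506) was 2.07 with a higher floor (the 25th percentile of intensities). FMP33, for a protein found in mitochondria, had the same profile of a low wild-type level. FMP33 had log2 levels of 8.15 and 8.85 in gpa2, 7.79 and 8.76 in gpr1, and 4.48 and 5.58 in wild type. Its change was 3.36 ± 0.42 (SE, limma adjusted p = 0.00859), and 2.15 with the higher floor. PIB1 encodes a RING-type ubiquitin ligase of endosomes and the vacuole. PIB1 had log2 levels of 8.17 and 7.57 in gpa2, 8.34 and 8.10 in gpr1, and 5.59 and 6.01 in wild type. The change was 2.24 ± 0.31 (SE, limma adjusted p = 0.0141), with no overlap between groups.

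PUT4, the high-affinity proline permease, rose by 2.83 ± 0.46 (SE, limma adjusted p = 0.0289). For PUT4 the log2 level was 11.53 and 10.94 in the gpa2 deletion, 10.59 and 10.73 in the gpr1 deletion, and 9.08 and 7.14 in wild type. The wild-type arrays were far apart, and without the second of them the change was 1.84. GPH1, glycogen phosphorylase, rose by 2.64 ± 0.49 (SE, limma adjusted p = 0.0475). GPH1 had log2 levels of 10.05 and 9.81 in gpa2, 8.21 and 9.42 in gpr1, and 7.28 and 6.18 in wild type. Here the gpa2 arrays were both above the gpr1 arrays. MPC3, which helps carry pyruvate into mitochondria, rose by 2.42 ± 0.39 (SE, limma adjusted p = 0.0268), or by 1.14 with the higher floor. The normalised log2 level of MPC3 was 7.90 and 7.50 in the gpa2 deletion, 6.84 and 7.26 in the gpr1 deletion, and 5.03 and 4.87 in wild type. In MPC3, unlike PUT4 and GPH1, all deletion arrays lay above wild type by more than the spread of either group.

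Other rises at mid level included ECM13 and ALD4, the mitochondrial aldehyde dehydrogenase. ECM13 measured, in log2 units, 10.19 and 10.10 in the gpa2 deletion, 9.80 and 9.99 in the gpr1 deletion, and 7.85 and 8.37 in wild type. ECM13 thus rose by 1.91 ± 0.21 (SE, limma adjusted p = 0.00506). ALD4 had log2 levels of 11.49 and 11.42 in gpa2, 11.02 and 11.13 in gpr1, and 9.97 and 9.84 in wild type. ALD4 rose by 1.36 ± 0.19 (SE, limma adjusted p = 0.0141), the tightest of the 20 largest rises after HSP12 in terms of its standard error. The remaining 10 of the 20 largest rises lay between 1.36 and 2.01: FMP45, a plasma membrane protein of the Sur7 family (2.01), ATG39, a receptor for autophagy of the nuclear envelope (1.87, or 0.97 with the higher floor), MSC1 (1.81), WSC4, of the WSC family (1.80), AQR1, a plasma membrane transporter (1.70), DCS2, a relative of the mRNA decapping scavenger (1.61), YTP1 (1.57), CMI8 (1.40), NCA3 (1.37) and AGX1, alanine:glyoxylate aminotransferase (1.36). Their adjusted p ran from 0.0242 to 0.0486.

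The called genes outside these 20 numbered 13, with rises of 0.93 to 1.30. TSL1, a subunit of the trehalose synthase complex, rose by 1.30 ± 0.22 (SE, limma adjusted p = 0.0305). CYB2, cytochrome b2 or L-lactate dehydrogenase, rose by 1.11 ± 0.20 (SE, limma adjusted p = 0.0435). COA3 (1.19), for assembly of cytochrome oxidase, ATP12 (1.10), for assembly of ATP synthase, SDH6 (1.07), for assembly of succinate dehydrogenase, OM14 (1.09), of the mitochondrial outer membrane, and PRX1 (1.03), a mitochondrial peroxiredoxin, also rose. The others were ECM4 (1.19), a glutathione transferase, PRY1 (1.11), PBI2 (1.07), an inhibitor of vacuolar proteinase B, YMR090W (1.06), YGR079W (1.00) and RFU1 (0.93), an inhibitor of the ubiquitin hydrolase Doa4.

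**Figure D2:**
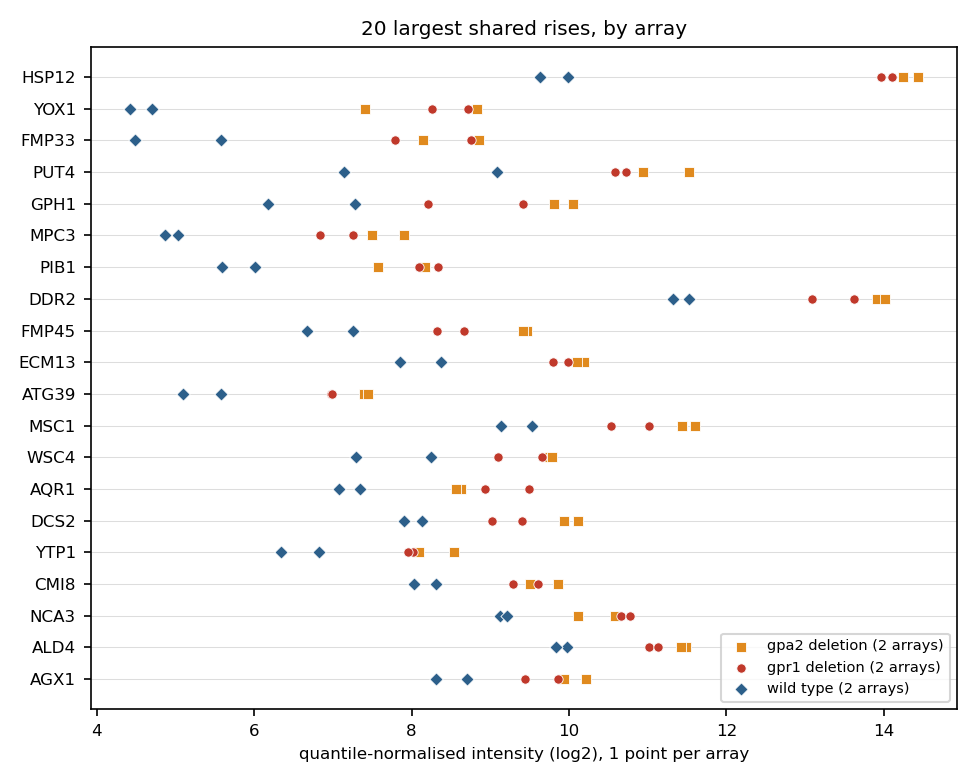
Rows are the 20 genes with the largest shared rises and the horizontal axis is the quantile-normalised intensity (log2), with 1 point for each of the 6 arrays, coloured by genotype. In every row the 4 deletion points lie right of both wild-type points, and HSP12 shows the widest gap.

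Among the falls, YDL241W, an open reading frame for which no role is given here, changed most among the called probe sets. For YDL241W the log2 level was 4.37 and 5.63 in the gpa2 deletion, 6.89 and 5.16 in the gpr1 deletion, and 9.75 and 10.19 in wild type. It was 22.0-fold lower in the deletions, a change of -4.46 ± 0.59 (SE, limma adjusted p = 0.0108), with all deletion arrays far below wild type and the first gpr1 array the highest of them. Across alternative settings that kept all arrays, its change was as small as -3.57. YJR115W followed, at -3.40 ± 0.44 (SE, limma adjusted p = 0.010), or as small as -2.89 across the same settings. YJR115W had log2 levels of 5.30 and 6.69 in gpa2, 5.53 and 5.84 in gpr1, and 8.84 and 9.64 in wild type. KTR2, a mannosyltransferase of the Golgi that extends the sugar chains of cell wall proteins, changed by -2.98 ± 0.34 (SE, limma adjusted p = 0.00534). The normalised log2 level of KTR2 was 6.59 and 6.98 in the gpa2 deletion, 6.93 and 6.35 in the gpr1 deletion, and 10.21 and 9.17 in wild type. Both deletions were at about the same level.

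PRM7, a pheromone-regulated gene of unknown function, was read by 2 probe sets that both fell. PRM7 measured, in log2 units, 7.59 and 7.76 in the gpa2 deletion, 7.64 and 7.33 in the gpr1 deletion, and 10.62 and 10.59 in wild type. The change was -3.02 ± 0.21 (SE, limma adjusted p = 2.01e-04). On the second probe set the change was -2.28 ± 0.17 (SE, limma adjusted p = 4.03e-04). By gene order in the R64 annotation PRM7 lies 3 genes from GPR1, and BSC1, 2 genes from GPR1, was too dim over the 6 arrays to be tested. The deposited intensity of BSC1 was 3.8 and 3.7 in the gpa2 deletion, 6.2 and 4.0 in the gpr1 deletion, and 897.7 and 708.7 in wild type, at least 70.9-fold lower in the deletions. Both genes were low on the gpa2 arrays as well, where GPR1 itself was present. Whether the probe sets of PRM7 and BSC1 read separate transcripts in this strain was not tested. The other genes next to GPR1 were not called: the log2 change was -0.41 for PUS9, -0.06 for SLM3, -0.34 for DBP10 and -0.11 for PRP9. In PUS9 all deletion arrays still lay below both wild-type arrays. None of the 6 nearest genes around GPA2 was called (changes of -0.25 to 0.37).

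AQY2, a water channel gene, and YLL053C, the reading frame next to it, fell together, and whether they are separate transcripts was not tested. For AQY2 the log2 level was 9.08 and 9.51 in the gpa2 deletion, 9.20 and 10.35 in the gpr1 deletion, and 12.13 and 12.34 in wild type. AQY2 changed by -2.70 ± 0.32 (SE, limma adjusted p = 0.00700). YLL053C had log2 levels of 10.14 and 10.55 in gpa2, 10.12 and 11.13 in gpr1, and 12.58 and 12.85 in wild type. YLL053C changed by -2.23 ± 0.28 (SE, limma adjusted p = 0.00859), and on both probe sets the second gpr1 array was the highest of the deletion arrays. SSK1, the response regulator that activates the osmotic stress kinase pathway, changed by -2.62 ± 0.47 (SE, limma adjusted p = 0.0425). The normalised log2 level of SSK1 was 5.83 and 6.52 in the gpa2 deletion, 7.74 and 6.36 in the gpr1 deletion, and 9.06 and 9.41 in wild type.

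Genes of phosphate supply also fell. PHO5 encodes the secreted acid phosphatase that is made when phosphate is short. PHO5 measured, in log2 units, 12.01 and 11.98 in the gpa2 deletion, 12.14 and 12.02 in the gpr1 deletion, and 13.51 and 13.75 in wild type. It was 3.02-fold lower in the deletions, a change of -1.59 ± 0.15 (SE, limma adjusted p = 0.00212), and its 4 deletion arrays lay close together, well below both wild-type arrays. PHO89, a sodium-coupled phosphate transporter, changed by -1.71 ± 0.32 (SE, limma adjusted p = 0.0475), or by -1.08 without the second wild-type array. PHO89 had log2 levels of 8.01 and 8.28 in gpa2, 8.34 and 8.47 in gpr1, and 9.36 and 10.62 in wild type. A probe set shared by PHO11 and PHO12, acid phosphatases close in sequence to PHO5, changed by -1.45 ± 0.19 (SE, limma adjusted p = 0.0103); signal from these genes cannot be told apart there.

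CMK2, a calmodulin-dependent protein kinase, changed by -1.62 ± 0.20 (SE, limma adjusted p = 0.00859). For CMK2 the log2 level was 10.32 and 10.36 in the gpa2 deletion, 10.62 and 10.30 in the gpr1 deletion, and 12.32 and 11.73 in wild type. YOR385W changed by -1.66 ± 0.18 (SE, limma adjusted p = 0.00506) and YOL014W, 2 genes from CMK2, by -1.59 ± 0.29 (SE, limma adjusted p = 0.0470). Other falls among the 20 largest were RTA1 (-1.91), YPR145C-A (-1.71), MNC1 (-1.31), RTS3 (-1.28), GYP7 (-1.24), an activator of the Rab GTPase Ypt7, and YPS3 (-1.15), an aspartic protease at the cell surface. FKS1, the catalytic subunit of glucan synthase, was called on 1 of its probe sets (-1.37, adjusted p = 0.0289 by limma), while its brightest probe set was at -0.22, so that the probe sets of FKS1 disagree. Outside the 20, DIA1 (-1.14) and RCR1 (-1.07), a membrane protein that affects chitin in the wall, also fell.

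**Figure D3:**
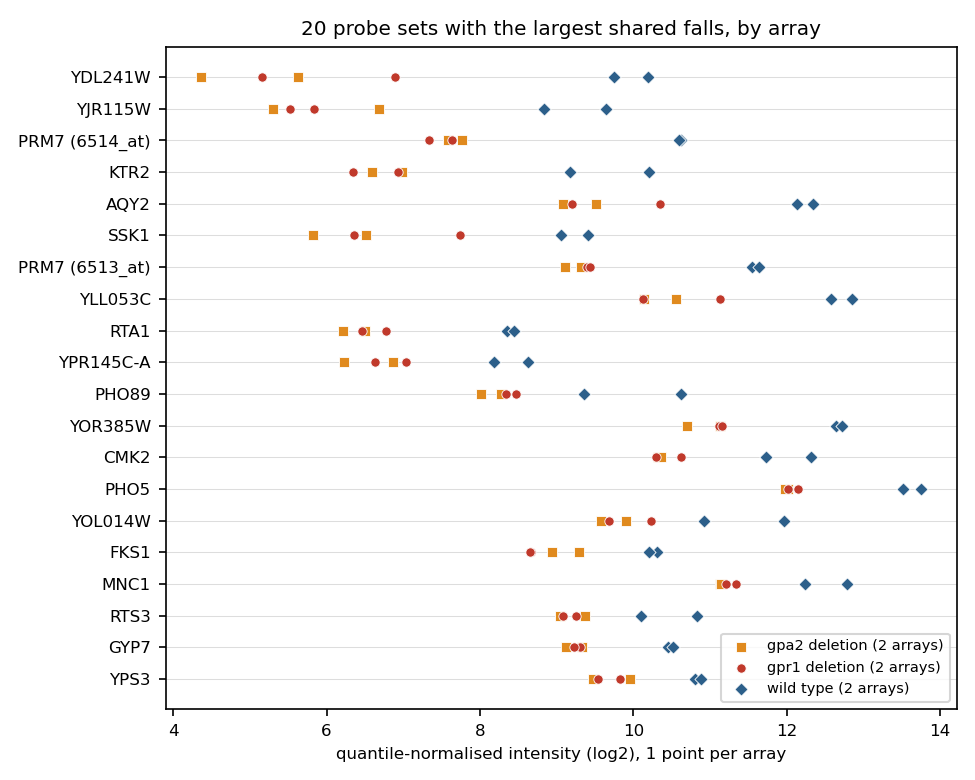
Rows are the 20 probe sets with the largest shared falls and the horizontal axis is the quantile-normalised intensity (log2), with 1 point for each of the 6 arrays, coloured by genotype. In every row the 4 deletion points lie left of both wild-type points, and in the rows of PRM7 and PHO5 the points of a genotype lie close together.

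Of the called probe sets, 8 name no single gene. The largest change of all was on 3982_at, whose deposited intensity was 14925.0 and 6929.0 in the gpa2 deletion, 20744.5 and 11877.3 in the gpr1 deletion, and 3.8 and 0.9 in wild type. It was at least 1646-fold higher in the deletions, since both wild-type arrays were at the floor of 8.97 (limma adjusted p = 4.19e-08). The tables used here give it no gene. The others were 8797_f_at (1.08), 10836_at (1.02), 7003_at (-1.68), 6989_at (-1.39), 3721_s_at (-1.14), 3763_s_at (-1.07) and the PHO11 and PHO12 probe set above. The 54 called genes lay on 12 chromosomes by the R64 gene order.

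Size was compared between the deletions with a separate coefficient for each genotype. Over all 6956 tested probe sets, gpa2 minus gpr1 was called for 2 (0.0288%), GPR1 as higher (6.64, 0.0144%) and GPA2 as lower (-6.18, 0.0144%), and for none of the 63 shared probe sets. At an unadjusted p under 0.05 there were 5 of the 36 rises and 0 of the 27 falls. These 5 rises were farther in the gpa2 deletion: GPH1 differed by 1.11, FMP45 by 0.94, DCS2 by 0.82, MSC1 by 0.75 and DDR2 by 0.61 (limma adjusted p = 0.99959 for each). Of all 36 rises 30 were farther from wild type in gpa2, as were 18 of the 27 falls. The same counts over all tested probe sets are not given here. The median absolute difference was 0.36 over the rises and 0.20 over the falls, against 0.17 over all tested probe sets. The first gpr1 array correlated with the first wild-type array at Pearson r = 0.964, above the 0.939 between the wild-type arrays. Whether this array alone carries the lean toward gpa2 was not tested. The median half-width of the 95% interval of the difference over the 63 was 0.57, and 58 intervals held 0. These intervals are not adjusted for the number of probe sets, so that the difference needed for a call is larger. Among the falls the largest difference was that of YDL241W (-1.02, unadjusted p = 0.142 by limma), followed by SSK1 (-0.87).

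**Figure D4:**
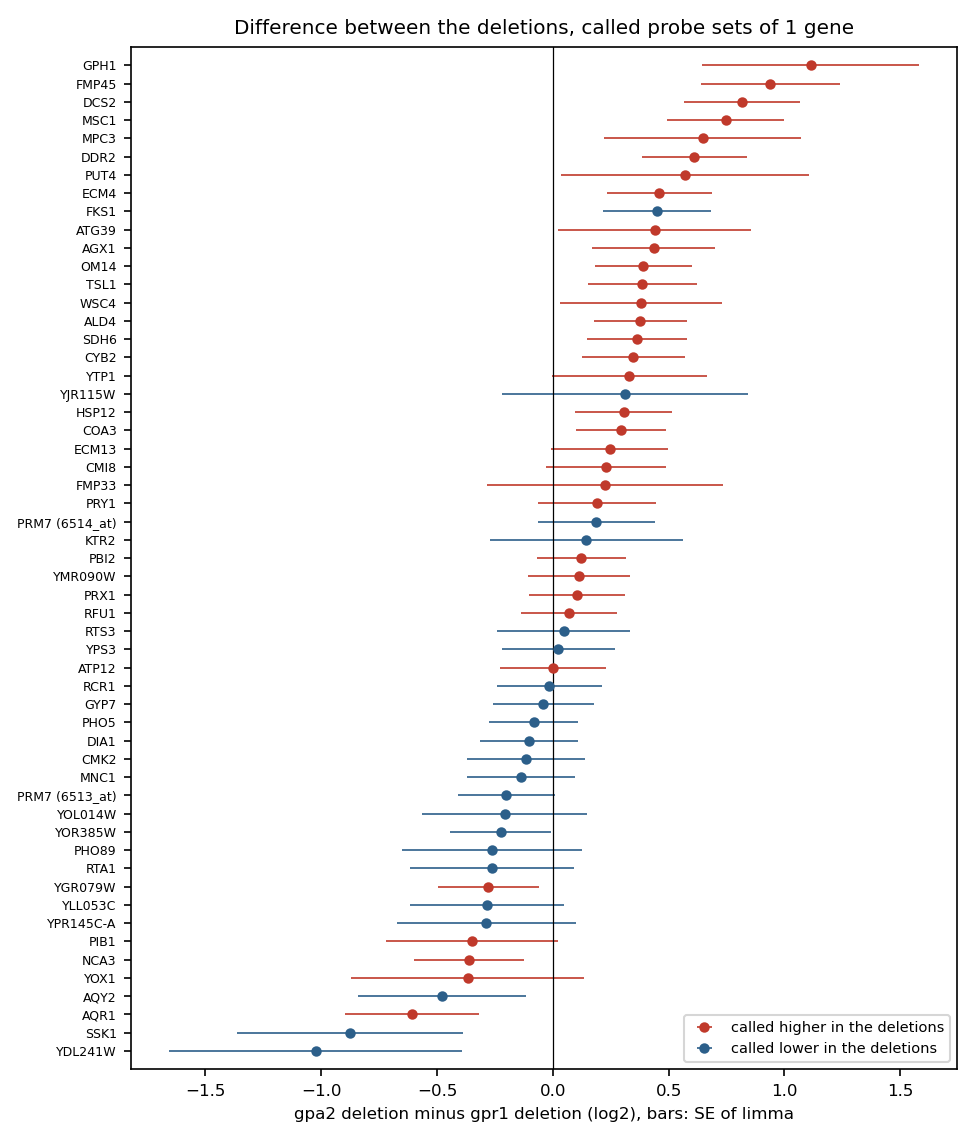
Rows are the called probe sets that name 1 gene and the horizontal axis is the gpa2 deletion minus the gpr1 deletion (log2), with limma's standard error as bars, red for genes called higher in the deletions and blue for genes called lower. Points right of 0 among the red rows, such as GPH1 at 1.11, were farther from wild type in the gpa2 deletion.

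Each deletion was also set against wild type on its own, both comparisons using the same 2 wild-type arrays. The gpa2 deletion had 34 probe sets higher (0.489% of 6956) and 21 lower (0.302%), or 0.791% in all, and the gpr1 deletion had 6 higher (0.0863%) and 9 lower (0.129%), or 0.216% in all. Of the 36 pooled rises, 24 passed in gpa2 alone against wild type, 6 in gpr1, and 11 in neither. Of the 27 pooled falls, 16 passed in gpa2, 7 in gpr1, and 10 in neither. For HSP12 the change was 4.53 in gpa2 and 4.22 in gpr1. For YOX1 it was 3.56 in gpa2 and 3.93 in gpr1, and for GPH1 3.19 in gpa2 and 2.08 in gpr1. YDL241W changed by -4.97 in gpa2 and by -3.94 in gpr1.

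The pathway's target groups were then read over 5656 genes, each by its brightest probe set. Over all these genes 602 (10.6%) had the 4 deletion arrays above wild type and 533 (9.42%) below, 33 of 5115 tested (0.645%) were called higher and 20 (0.391%) lower, and the median change was 0.00. At an unadjusted p under 0.05 by limma, 394 of the 5115 were higher and 260 lower, the background for such counts in the lists below. The lists were given no test of their own, and their members were chosen with earlier results of these data known. On the intensities as deposited the median gene was at -0.65, and measured from there the medians kept their direction, at 0.56 for stress genes, 0.32 for trehalose and glycogen, 0.36 for glucose-repressed genes, 0.34 for oxidative phosphorylation, 0.26 for the citric acid cycle, 0.23 for Start genes, -0.34 for ribosome biogenesis, -0.30 for amino acid biosynthesis and -0.25 for phosphate genes. Measured the same way, lists near 0 after quantile normalisation did not all stay there. Glycolysis was at 0.23, hexose transport at 0.22 and cytosolic ribosomal proteins at 0.21, about as far from the median gene as Start genes. The cell wall was at 0.12, osmotic genes at -0.06, the pheromone response at -0.07 and permeases at -0.11. RNA from a whole culture was measured, so that more cells expressing a gene and more RNA per cell cannot be told apart. Of the genes called, 14 of 33 higher and 8 of 21 lower (FKS1 among the 21, though not by its brightest probe set) were on at least 1 list. The share of all genes that are on a list is not given here, so that these counts are a description only.

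Genes listed here as known targets of Msn2 and Msn4 lay mostly above wild type. As earlier results of these data were known when the list was drawn up, its counts are a description and not independent support. Of 57 measured and 54 tested, 8 rose (HSP12, DDR2, MPC3, FMP45, MSC1, DCS2, OM14 and PRX1) and 0 fell. In 30 (52.6%) all deletion arrays were above wild type and in 1, the vacuolar protease gene PRB1, all were below (-0.59, not called). The median change was 0.53, with 0.85 in gpa2 and 0.37 in gpr1. By array, the median gene stood 0.86 and 0.67 above the wild-type mean on the gpa2 arrays and 0.28 and 0.42 on the gpr1 arrays, against -0.04 and 0.04 on the wild-type arrays. The wild-type values mirror each other because they are measured from their own mean, and they do not show the spread of single genes. Members beyond wild type that missed the threshold included HSP26, a small heat shock protein gene (2.49, adjusted p = 0.0541 by limma), TFS1 (1.47, 0.0757) and HXK1, hexokinase isoenzyme 1 (1.34).

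Of 21 trehalose and glycogen genes, TSL1 and GPH1 rose and 0 of 19 tested fell. In 7 (33.3%) all deletion arrays were above wild type and in 0 below, with a median change of 0.33 (0.51 without the first wild-type array). PGM2, phosphoglucomutase, had a change of 1.44 (adjusted p = 0.0869 by limma) and GSY2, glycogen synthase, one of 0.99 (0.129), neither past the threshold.

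Glucose-repressed genes of carbon use were 30, of which ALD4 and CYB2 rose and 0 fell among 22 tested. In 10 (33.3%) the deletion arrays were all above wild type and in 1, FOX2 of peroxisomal beta-oxidation, all below (-1.0, not called). The median change was 0.32. Of 40 nuclear genes of oxidative phosphorylation none was called, with 13 higher at an unadjusted p under 0.05 by limma. Yet in 20 (50%) the deletion arrays were all above wild type and in 0 below, and the median change was 0.30. SDH2, of succinate dehydrogenase, was at 0.67 and QCR2, of the bc1 complex, at 0.70, and neither passed. The 20 citric acid cycle genes had 5 (25%) above, 0 below, 0 calls (5 higher at an unadjusted p under 0.05 by limma) and a median of 0.29, which was 0.18 without the first wild-type array. The 9 mitochondrially encoded genes, 2 of them tested and 0 called by limma (2 higher at p under 0.05 before adjustment), had a median of 0.66, and of 0.00 without the second wild-type array. Of these, OLI1 and COX1 were low on that array only, each on its brightest probe set. The probe sets of COX1 disagree. A dimmer one, not tested, was at 5.63 and 5.68 (log2) on the wild-type arrays, so that it was not low on the second. The other dim probe sets of OLI1 and COX1 were at the floor on every array and cannot show such a drop. On its brightest probe set OLI1 had log2 levels of 12.11 and 11.15 in gpa2, 12.49 and 12.13 in gpr1, and 12.37 and 3.16 in wild type. Without the second wild-type array the change of OLI1 was -0.40.

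Ribosome biogenesis genes lay the other way. None of 111 was called, with 19 lower at an unadjusted p under 0.05 by limma, but in 28 (25.2%) the deletion arrays were all below wild type and in 3 (2.7%) above. The median change was -0.29, with -0.42 in gpa2 and -0.18 in gpr1. FAF1 was at -0.69 and NOP7 at -0.81, neither past the threshold. The 80 cytosolic ribosomal protein genes had a median of 0.01 (-0.03 without the first gpr1 array), with 6 above, 2 below and 0 called by limma (without adjustment, 5 were higher at p under 0.05). Of 67 amino acid biosynthesis genes, 20 (29.9%) were below and 0 above, with a median of -0.27 (-0.16 without the second wild-type array) and 0 calls by limma (without adjustment, 10 were lower at p under 0.05). HIS4, of histidine synthesis, was the nearest to the threshold (-1.22, adjusted p = 0.0657 by limma).

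Of 20 phosphate genes, PHO5 and PHO89 fell among 19 tested and 0 rose. In 9 (45%) the deletion arrays were all below wild type and in 1 (5%) above, and the median change was -0.21 (-0.14 without the first gpa2 array). PHO8, the vacuolar alkaline phosphatase, was at -0.52 and PHM6 at -0.55, both short of the threshold.

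**Figure D5:**
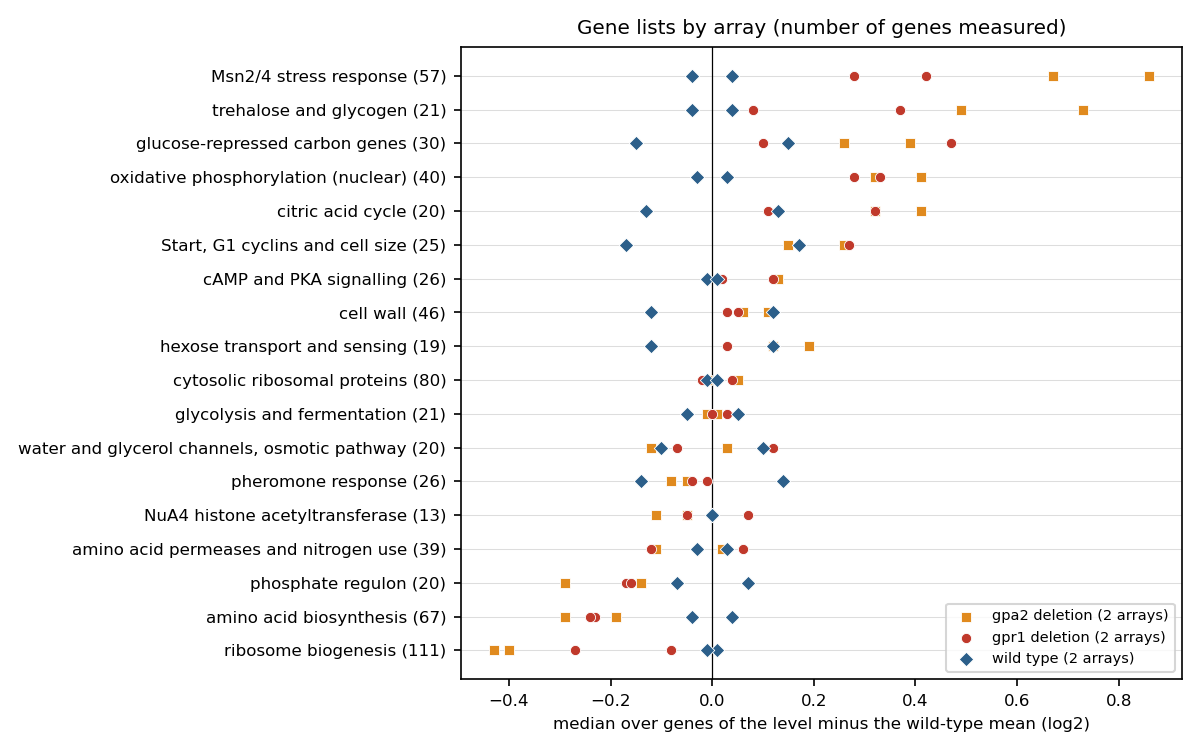
Rows are gene lists with the number of genes measured, ordered by median change, and the horizontal axis is the median over the list's genes of the level on an array minus the wild-type mean (log2), with 1 point for each of the 6 arrays. Stress genes stand between 0.28 and 0.86 on the deletion arrays and ribosome biogenesis genes between -0.43 and -0.08. Both wild-type arrays lie within 0.04 of 0 on these lists. Their points mirror each other around 0 because they are measured from their own mean, so that they do not show the spread of single genes.

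Genes of Start, G1 cyclins and cell size bear on the phenotype in the study's title. Of 25 measured and 23 tested, YOX1 rose and 0 fell. In 8 (32%) the deletion arrays were all above wild type and in 0 below, with a median change of 0.23 that was 0.07 without the first wild-type array and 0.36 without the second. The Pho85 cyclin genes PCL1 (1.26, adjusted p = 0.0869 by limma) and PCL2 (1.10, 0.155) and the cyclin-kinase inhibitor gene SIC1 (0.53) did not pass, and the G1 cyclin genes CLN1 (0.42), CLN2 (0.29) and CLN3 (0.14) and the inhibitor of Start WHI5 (0.23) were not called.

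The signalling genes themselves gave no shared call. Of 26 genes of cAMP and protein kinase A signalling, GPR1 and GPA2 among them, 0 were called among 25 tested (at unadjusted p under 0.05 by limma, 2 higher and 2 lower), and the median change was 0.11 (0.05 without the first gpa2 array). MSN2 was at 0.67 (adjusted p = 0.213 by limma) and MSN4 at 0.49. The phosphodiesterase gene PDE2 was at 0.41, PDE1 at -0.48 and GPB1, for a kelch protein that binds Gpa2, at -0.60, all short of the threshold.

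Groups with medians near 0 after quantile normalisation were hexose transport and sensing (0.03, 0 called by limma among 14 tested, without adjustment 2 higher and 1 lower at p under 0.05), glycolysis and fermentation (0.01, 0 of 20, with 1 higher and 3 lower), the cell wall (0.05, KTR2 lower among 45 tested), osmotic and water channel genes (-0.04, AQY2, YLL053C and SSK1 lower among 18 tested), the pheromone response (-0.05, PRM7 lower among 22 tested) and permeases and nitrogen use (-0.10, PUT4 higher among 36 tested). Most of these medians turned sign without 1 array: glycolysis was at -0.17 and the cell wall at -0.07 without the first wild-type array, the pheromone response at 0.09 and permeases at 0.03 without the second, and osmotic genes at 0.03 without the first gpa2 array, where hexose transport was at 0.18. HXT3, a low-affinity glucose transporter gene, was at -0.60 (adjusted p = 0.164 by limma). PRM5 (-1.04, 0.0636), PRM4 (-0.96, 0.0701) and the ammonium permease gene MEP2 (-0.99, 0.0874) were near the threshold and did not pass. NuA4 histone acetyltransferase genes had a median of -0.07 (0.0003 without the second wild-type array) and 0 of 12 called by limma, with 0 at an unadjusted p under 0.05. The 8 auxotrophic marker genes had a median of -0.25 (-0.54 without the first wild-type array) and 0 calls by limma, with 1 lower at p under 0.05 before adjustment, and meiosis genes averaged 5.02 to 5.43 (log2) on the deletion arrays, against 5.40 and 5.44 on the wild-type arrays.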

How the data were processed

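Total RNA of 6 W303-1a arrays was measured, 2 per genotype, grouped by titles. The authors deposited 1 linear intensity per probe set. The sources used here do not name the summary method, scaling or genome build. Probe sets were named from the platform annotation: 6504 matched R64 by gene identifier, and of 6956 tested 5650 name 1 gene, 275 several and 1031 none.

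Intensities were quantile-normalised over 9275 probe sets, floored at the pooled 10th percentile (8.97) and taken to log2. Probe sets with a mean under the 25th percentile (log2 6.16) were left out of the test. limma 3.58.1 (R 4.3.3, eBayes with trend) compared the 4 deletion arrays with the 2 of wild type, on 4 residual degrees of freedom, and in a second fit each genotype with the others. The 6 arrays limit the precision. The fit was tested on simulated data. Named were GPR1, GPA2, the 20 largest called rises and falls, up to 4 members of each gene list by smallest p, the 6 largest dim differences each way, the 6 largest differences between deletions and unnamed calls. RFU1, TSL1 and other smaller calls, and list genes beyond 4, were named after their values were seen. Members, 23 lists and tests were chosen with earlier results of these data known. Alternatives covered the fit, replicate block, scaling, floor, filter, trend and leaving out each array. Promoter sequence was not analysed here.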

Additional observations from a re-analysis of the deposited data

Results flagged for a closer look

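In each called probe set the 4 deletion arrays were examined for 1 array far from the other 3, by its gap to the nearest other over the range and Dixon's 95% critical value, and 3 of 63 stood out, where chance gives about 1 in 20. YOR385W was 10.7 (log2) on the first gpa2 array and 11.12 to 11.16 on the others. WSC4 was 9.1 on the first gpr1 array and 9.66 to 9.78 on the others. Probe set 3763_s_at, which names several genes, was 9.71 on the first gpr1 array and 9.21 to 9.29 on the others.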

How the results depend on the processing

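The 36 higher and 27 lower calls became 10 and 14 without eBayes trend, 5 and 12 with all 9275 probe sets tested, and 6 higher on intensities as deposited, where 40 probe sets rather than 806 lay above wild type. Leaving out 1 array in turn gave 6 to 109 higher and 10 to 37 lower, 955 to 2180 probe sets above wild type and 1032 to 2638 below; with fewer arrays fewer need to agree. Of 63 calls, 5 held in all 14 alternatives: 3982_at, HSP12, PHO5 and both of PRM7. The cause of the other losses was not tested. No difference between the deletions was called among the 63 in any of the 14, and GPR1 and GPA2 stayed low in their own deletions.

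With the replicate number as a block there were 54 higher and 42 lower calls, holding 35 and 27 of the 63. Arrays of the same number deviated together (r = 0.209, 0.203 and 0.404 between genotypes), but with 2 numbers this does not establish pairs.

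Of named genes outside the calls, these changed sign on intensities as deposited, where the median tested probe set was at -0.67: PDE2 (-0.31), HXT6 (-0.0241), HXT7 (-0.10), SDH3 (-0.16), INH1 (-0.15), QCR2 (-0.0286), MDH1 (-0.14), SDH4 (-0.19), RPL22A (-0.0407), SIC1 (-0.14), SCW11 (-0.12), CWP1 (-0.0718), GPP2 (-0.0802), ESA1 (-0.38), YAF9 (-0.39), MFA2 (-0.12), AGA2 (-0.50) and STE3 (-0.33). MET17 was 0.10 with median centring. Leaving out 1 array in turn also changed signs: SAG1 ran from -0.0703 to 0.0299, IME2 from -0.5823 to 0.0318 (without the first wild-type array; 0.016 without the first gpa2 array), TRA1 from -0.596 to 0.0003, OLI1 from -0.3952 to 8.9155 and MFA1 from -0.0332 to 1.3965. The last 3 changed sign without the second wild-type array, as did SAG1 (0.0026), which was 0.0027 without the first gpr1 array.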

Other observations

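Among dim probe sets that were not tested, further ones had groups that did not overlap after normalisation; their intensities are given as deposited. SWP82, a subunit of the SWI/SNF chromatin remodeller, was deposited at 13.8 and 13.7 in the gpa2 deletion, 56.5 and 22.6 in the gpr1 deletion, and 434.6 and 529.1 in wild type. AIM33 went the other way, with 144.9 and 67.0 in the gpa2 deletion, 224.0 and 76.7 in the gpr1 deletion, and 10.6 and 3.3 in wild type, at least 16.0-fold higher in the deletions after normalisation. DSS1, a component of the mitochondrial RNA degradation complex, had 45.8 and 78.4 in the gpa2 deletion, 197.1 and 65.1 in the gpr1 deletion, and 16.3 and 16.2 in wild type. AQY1, the second aquaporin gene of yeast, had 115.8 and 86.4 in the gpa2 deletion, 102.4 and 68.4 in the gpr1 deletion, and 82.1 and 4.9 in wild type, while AQY2 was lower in the deletions.

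The TDH3 probe set, for glyceraldehyde-3-phosphate dehydrogenase, was at the floor on some arrays and very high on others, also between the gpr1 arrays. It was at 14.21 and 13.44 (log2) on the gpa2 arrays, 3.16 and 13.11 on those of gpr1, and 3.16 on both wild-type arrays, so that its groups overlapped and it was not called. EAF7, of the NuA4 histone acetyltransferase, had 6.18 and 6.11 in the gpa2 deletion, 8.56 and 7.86 in the gpr1 deletion, and 8.56 and 8.32 in wild type. It was lower in the gpa2 deletion than in wild type (log2 change -2.29, adjusted p = 0.0322 by limma), while gpa2 minus gpr1 did not pass over all probe sets (adjusted p = 0.460 by limma).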
